A study of Mus musculus with 21 samples.

Results

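The tRNA pools of wildtype mouse cerebellum and wildtype cerebrum were compared. The study profiled both brain regions of C57BL/6J mice in which tamoxifen switches on a mutation of Polr3a, a subunit of RNA polymerase III, and of wildtype mice given the same drug. Only the wildtype libraries enter the main comparison: 12 of the 21 libraries, 6 from cerebrum and 6 from cerebellum, 4 male and 2 female in each region. All 12 came from tamoxifen-treated animals of genotype Wildtype, with treatment at postnatal day 28 and tissue frozen at postnatal day 42, so an animal that never received the drug is not part of the comparison. Whether each library is a different animal is not stated, and the p-values then reflect library-to-library spread alone, which may be technical. They also do not say how the libraries of each region were prepared or sequenced, so region and any preparation batch cannot be told apart. A tRNA library holds no protein-coding marker, so the labelled tissue could not be checked against cell type markers.

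Of the tRNA rows deposited, 209 for cerebrum and 208 for cerebellum, 204 were in both tables and are described here: 182 nuclear isodecoders and 22 mitochondrial tRNAs. The 5 rows listed for cerebrum only and the 4 listed for cerebellum only held few reads, at most 45 in any wildtype library. All 204 passed the low-count filter. The cerebrum libraries held 4353008 to 6171823 counts over the shared rows and the cerebellum libraries 1612722 to 5323222, where cerebellum wildtype 5 was the deepest and the other 5 stayed at or under 2272625.

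Each tRNA reads codons through its anticodon and carries 1 amino acid. Isodecoders are tRNAs with the same anticodon and different bodies, and isoacceptors are tRNAs with different anticodons for the same amino acid. Nuclear tRNA genes are transcribed by RNA polymerase III from many scattered loci, whereas mitochondrial tRNAs are cut from long transcripts of the mitochondrial genome and serve translation inside the organelle. Levels below are TMM-scaled CPM, counts set to a common library size of 1000000, of QuantM-tRNA-seq reads, a method that sequences tRNAs from total RNA. They rank tRNAs by reads obtained, without correction for length or for how readily each tRNA is copied, and reads of near-identical isodecoders could have been split between them by the authors' counting.

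The following mitochondrial tRNAs differed most between the regions and are shown as gene sequences in the RNA sense, 5′ to 3′, from the mm10 genome, with the anticodon in capitals. Sequences of nuclear isodecoders were not used here. Ala-TGC lies at chrM:5018-5086 on the minus strand, His-GTG at chrM:11546-11612 (plus), Glu-TTC at chrM:14071-14139 (minus) and Thr-TGT at chrM:15289-15355 (plus), and these 4 were higher in cerebellum. Trp-TCA at chrM:4950-5016 (plus), Asn-GTT at chrM:5089-5159 (minus) and Val-TAC at chrM:1025-1093 (plus) were lower in cerebellum. Every one is annotated as a tRNA gene.
mitochondrial Ala-TGC: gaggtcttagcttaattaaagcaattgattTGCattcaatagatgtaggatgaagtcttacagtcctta
mitochondrial His-GTG: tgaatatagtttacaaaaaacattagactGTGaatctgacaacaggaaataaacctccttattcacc
mitochondrial Glu-TTC: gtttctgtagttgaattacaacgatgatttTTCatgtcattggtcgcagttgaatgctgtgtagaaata
mitochondrial Thr-TGT: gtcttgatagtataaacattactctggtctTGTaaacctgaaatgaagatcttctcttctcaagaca
mitochondrial Trp-TCA: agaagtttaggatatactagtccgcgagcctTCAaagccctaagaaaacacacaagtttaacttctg
mitochondrial Asn-GTT: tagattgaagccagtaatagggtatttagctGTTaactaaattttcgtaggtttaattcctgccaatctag
mitochondrial Val-TAC: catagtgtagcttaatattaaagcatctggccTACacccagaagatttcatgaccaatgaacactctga

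Both regions were led by the same nuclear tRNAs. The most abundant isodecoder in each by its mean was Asn-GTT-3, with 9.51% of tRNA counts in cerebrum and 7.02% in cerebellum. It was followed by Lys-TTT-1 (8.38% and 6.95%), Gln-CTG-2 (8.17% and 5.22%) and Asp-GTC-1 (5.59% and 5.17%). In cerebrum wildtype 1 and 2 and cerebellum wildtype 2 and 5, Lys-TTT-1 was above Asn-GTT-3. By anticodon, Lys-TTT led in cerebellum by its mean, with 7.22% against 7.06% for Asn-GTT. This was within the spread of the libraries: Asn-GTT was above Lys-TTT in cerebellum wildtype 1 (7.23% against 7.21%) and 3 (7.93% against 6.41%). Across the 182 nuclear isodecoders, mean levels in the regions had a Spearman rho of 0.974, a description over tRNAs that are not independent replicates. Within that shared order, 84 nuclear isodecoders differed by less than 1.5-fold between the regions by edgeR's fold change, and 38 (20.9%) by over 2-fold. Of the 42 anticodons with 2 or more isodecoders and a mean count of at least 1000, 40 had the same leading isodecoder in both regions.

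The cerebellar pool was more evenly spread. The 10 most abundant nuclear isodecoders were taken as the same set for both regions, ranked by mean share over all the wildtype libraries. They held 52.8% ± 1.45 of nuclear counts in cerebrum and 45.8% ± 1.07 in cerebellum (SD, n = 6 each). The lowest, median and highest libraries were at 51.4%, 52.3% and 55.4% in cerebrum and at 44.5%, 45.8% and 47.1% in cerebellum, so the groups did not overlap. The effective number of nuclear isodecoders, the exponential of the Shannon entropy of their shares, was 42.03 ± 2.07 in cerebrum and 52.4 ± 2.01 in cerebellum. For nuclear anticodons it was 26.7 ± 1.02 and 31.4 ± 0.699. Each of these 3 measures had an exact two-sided permutation p of 0.00216, the smallest that 924 splits allow, and an adjusted p of 0.00216 over 6 library measures.

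Mitochondrial tRNAs took 11.2% ± 0.445 of all tRNA counts in cerebrum (lowest 10.4%, median 11.3%, highest 11.7%) and 13.4% ± 0.7002 in cerebellum (12.5%, 13.5% and 14.4%; SD, n = 6 each). The groups did not overlap (exact two-sided permutation p = 0.00216, adjusted p = 0.00216). The share is taken of all counts, of which the most abundant nuclear tRNAs held less in cerebellum. On the TMM scale, which sets the bulk of tRNAs equal, the mitochondrial total was 123995 ± 4986 CPM in cerebrum and 121448 ± 10240 CPM in cerebellum and did not pass (log2 fold change −0.03 ± 0.06 SE, edgeR adjusted p = 0.6252).

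A bacterial tRNA spike-in is listed in each table. Its amount is not stated in the labels, and any ratio to it takes the amount to be the same in all libraries. Relative to it, the log2 difference, cerebellum minus cerebrum, was −1.26 ± 0.18 (SE) for nuclear tRNAs and −0.96 ± 0.17 for mitochondrial tRNAs, without overlap between the groups (exact two-sided permutation p = 0.00216 and adjusted p = 0.00216 for each). Fewer tRNAs per cell, fewer cells or a different share of other RNA cannot be told apart in these bulk samples. The scale also sets the sign of moderate changes: the median log2 fold change over all 204 tRNAs was −0.05 with TMM, 0.24 with library totals and −0.99 with the spike-in. Directions below are relative to the bulk of tRNAs, by TMM.

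By amino acid, histidine tRNAs stood highest in cerebellum relative to cerebrum, and the nuclear serine, glutamine, asparagine and arginine tRNAs were lower. Of 24 classes (the nuclear tRNAs of each amino acid, initiator methionine, selenocysteine, the Sup row and the mitochondrial total), 20 passed edgeR's quasi-likelihood test at an adjusted p under 0.05 (83.3%), 8 higher (33.3%) and 12 lower (50%), and 15 (62.5%) did not overlap between the groups. Here and below a log2 fold change is cerebellum minus cerebrum. With library totals 57.9% of the classes called were higher, against 40% with TMM, and with the spike-in 5%.

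**Figure D1:**
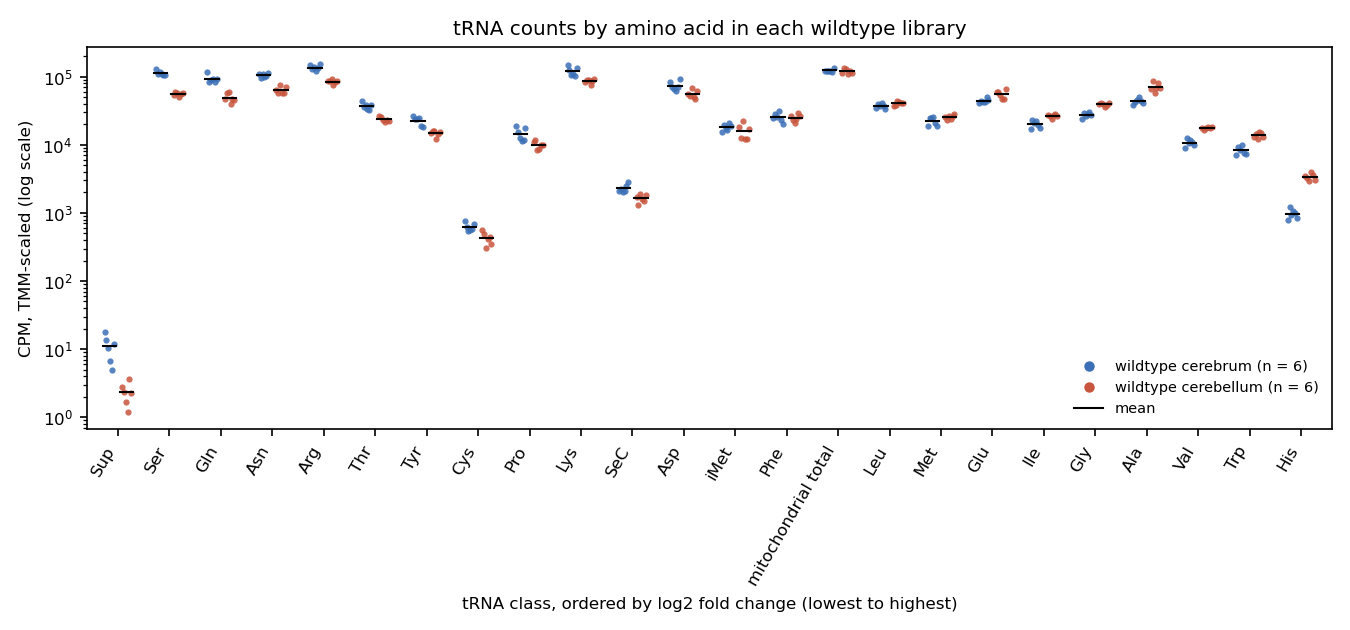
CPM by amino acid class (y axis, log scale) in each of the 12 wildtype libraries, ordered along the x axis by log2 fold change. Points are libraries and lines are means of 6; histidine at the right rises from a mean of 972 to 3405 CPM, and serine near the left falls from 113125 to 55853 CPM.

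Nuclear histidine tRNAs measured 800, 955 and 1210 CPM (lowest, median, highest) in cerebrum and 2906, 3424 and 3973 CPM in cerebellum. All 6 cerebellum libraries lay above every cerebrum library, a 3.50-fold difference (log2 1.81 ± 0.13 SE, edgeR adjusted p = 9.76e-32). Histidine was the only one of the 8 higher classes that stayed above 0 with the spike-in, at 0.91. The single nuclear anticodon GTG reads both histidine codons, and its 3 isodecoders all rose: His-GTG-2, which holds almost all of the reads, by 1.78 ± 0.11 (SE), and the scarce His-GTG-1-1 and His-GTG-3-1 by 3.50 ± 0.25 and 2.20 ± 0.23 on the log2 scale.

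Tryptophan (log2 0.74 ± 0.12 SE), valine (0.72 ± 0.12), alanine (0.71 ± 0.10), glycine (0.51 ± 0.08), isoleucine (0.41 ± 0.10), glutamate (0.33 ± 0.09) and methionine (0.21 ± 0.10) tRNAs were also higher in cerebellum, and each of the 7 turned below 0 with the spike-in (−0.17, −0.16, −0.24, −0.39, −0.49, −0.57 and −0.68). Alanine tRNAs, read through the anticodons AGC, CGC and TGC, measured 38625, 43286 and 50234 CPM in cerebrum and 58806, 68421 and 87638 CPM in cerebellum, with no overlap (edgeR adjusted p = 1.05e-10). Among classes by rank, alanine moved from place 9 in cerebrum to place 4 in cerebellum. The methionine call was the weakest (edgeR adjusted p = 0.0396) and was lost in 7 of the 12 fits that left out 1 library: cerebrum wildtype 1, 5 or 6, or cerebellum wildtype 1, 3, 5 or 6. It was also lost with a block on the replicate number (edgeR adjusted p = 0.0619) and in the fit of all 21 libraries (adjusted p = 0.172).

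Serine tRNAs were at 105408, 108508 and 131635 CPM in cerebrum and at 50330, 56354 and 60011 CPM in cerebellum. Cerebrum was 2.03-fold higher without overlap (log2 −1.02 ± 0.09 SE, edgeR adjusted p = 2.33e-22). Lower values were also found for glutamine (−0.92 ± 0.10 SE), asparagine (−0.73 ± 0.09), arginine (−0.69 ± 0.07), threonine (−0.66 ± 0.08), tyrosine (−0.62 ± 0.11), cysteine (−0.56 ± 0.15), proline (−0.56 ± 0.12), lysine (−0.50 ± 0.07), selenocysteine (−0.50 ± 0.13) and aspartate (−0.41 ± 0.10), and the 11 classes from serine to aspartate kept their sign under every scaling tried. With library totals, however, 4 of them lost their call: aspartate (−0.12, edgeR adjusted p = 0.228), selenocysteine (−0.21, adjusted p = 0.155), cysteine (−0.26, adjusted p = 0.0916) and proline (−0.26, adjusted p = 0.057). The Sup row, named for an anticodon that pairs with a stop codon, had the lowest value of the classes (−2.11 ± 0.42) but rests on few reads, 3 in the lowest library. Phenylalanine (−0.05 ± 0.09 SE, edgeR adjusted p = 0.613), leucine (0.14 ± 0.08, adjusted p = 0.0757) and initiator methionine (−0.20 ± 0.12, adjusted p = 0.0989) did not pass.

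At the level of single tRNAs, 154 of 204 passed (75.5%; edgeR adjusted p under 0.05): 73 were higher in cerebellum (35.8%) and 81 lower (39.7%). Libraries of the regions did not overlap for 108 (52.9%). With library totals the same test called 92 higher and 58 lower, and with the spike-in 6 higher and 137 lower. Of the 72 anticodons, nuclear and mitochondrial apart, 59 passed (81.9%), 27 higher and 32 lower, and 44 (61.1%) did not overlap. Passing was thus the common state of a tRNA here, and a passing call alone does not set a tRNA apart.

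**Figure D2:**
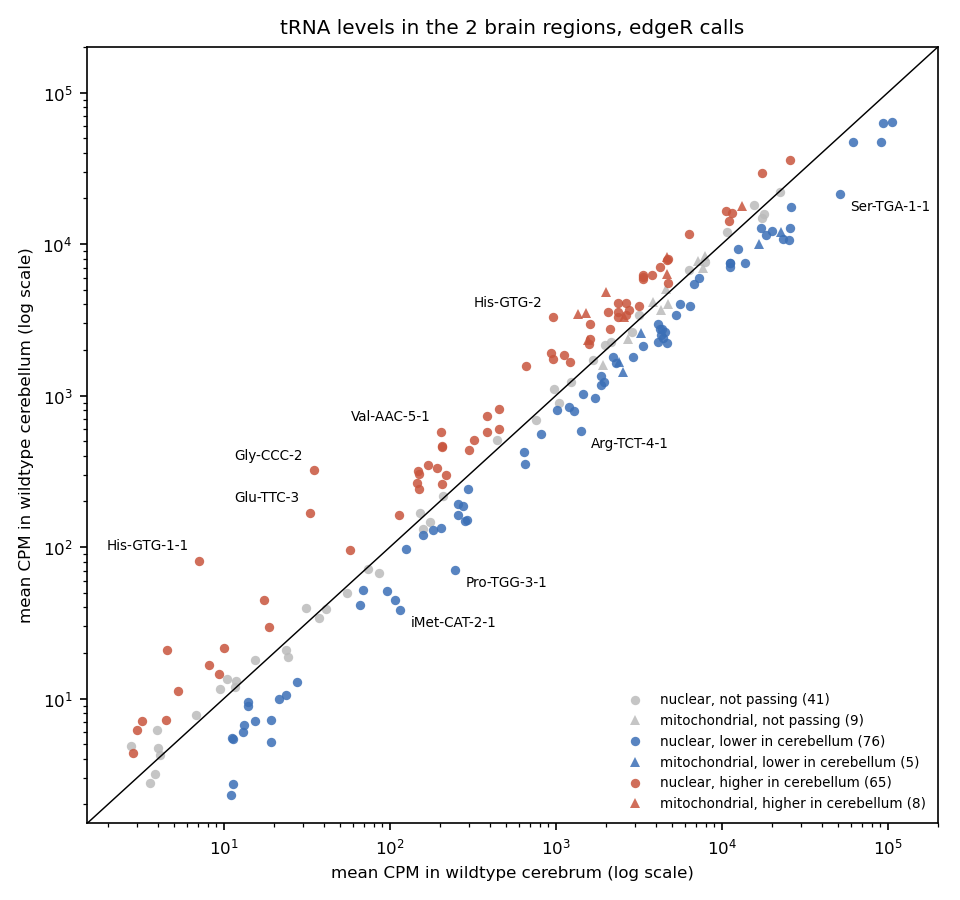
Mean CPM of each tRNA in wildtype cerebrum (x axis, log scale) against wildtype cerebellum (y axis, log scale), n = 6 libraries each; circles are nuclear isodecoders, triangles mitochondrial tRNAs, and colours give the edgeR call. Points follow the line of equality over the whole range, with His-GTG-1-1, Gly-CCC-2 and Glu-TTC-3 farthest above it.

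The largest rises in cerebellum were of scarce isodecoders of families that have an abundant member. Gly-CCC-2, a glycine tRNA, measured 19.96, 31.3 and 53.1 CPM in cerebrum and 280, 314 and 371 CPM in cerebellum. That is a 9.23-fold difference with no overlap (log2 3.21 ± 0.21 SE, edgeR adjusted p = 7e-11), while its abundant sister Gly-CCC-1 rose by 0.36. Glu-TTC-3 went from 24.4, 34.3 and 38.8 CPM to 124, 155 and 243 CPM (log2 2.35 ± 0.17 SE, edgeR adjusted p = 2.36e-10). His-GTG-1-1 had the largest change of all, from 3.24, 6.41 and 13.04 CPM to 57.7, 81.2 and 113 CPM, an 11.3-fold difference (log2 3.50 ± 0.25 SE, edgeR adjusted p = 2.36e-10). Reads of an abundant sister assigned to a scarce one would move such values, and this was not tested.

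Among tRNAs with more reads, His-GTG-2 rose from 793, 946 and 1197 CPM to 2832, 3333 and 3848 CPM (log2 1.78 ± 0.11 SE, edgeR adjusted p = 6.35e-11). Arg-CCT-1-1, an arginine tRNA, rose from 514, 693 and 739 CPM to 1493, 1573 and 1612 CPM (log2 1.25 ± 0.10 SE, edgeR adjusted p = 4.43e-10). Val-AAC-5-1 (log2 1.51 ± 0.11) and Gly-GCC-2 (1.18 ± 0.11) were also among the 12 highest. The scarce Ile-AAT-3-1 (1.35 ± 0.18), at 11.8 to 24.2 CPM in cerebrum, and the scarce His-GTG-3-1 completed them with 3 mitochondrial tRNAs. The limit given above, reads of an abundant sister, holds for these scarce isodecoders too. None of the 12 overlapped between the groups. All 12 stayed above 0 with the spike-in.

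On the lower side, Ser-TGA-1-1, the main serine tRNA, fell from 44971, 50914 and 60073 CPM in cerebrum to 17631, 21948 and 23792 CPM in cerebellum (log2 −1.27 ± 0.10 SE, edgeR adjusted p = 3.46e-10). It was the fifth most abundant tRNA in cerebrum and ranked 8 in cerebellum. Ser-CGA-2-1 fell with it, from a mean of 25296 ± 2919 to 10689 ± 868 CPM (log2 −1.24 ± 0.09 SE), moving from rank 9 to rank 25. Among abundant arginine tRNAs Arg-ACG-1 fell by 1.13 ± 0.09 and Arg-TCG-3 by 1.01 ± 0.09 on the log2 scale. In the groups of these 4 tRNAs no cerebellum library reached the lowest cerebrum library.

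The lowest ratios came from scarce tRNAs: Sup-TCA-1-1 (log2 −2.12 ± 0.33 SE), Gln-TTG-5-1 (−2.07 ± 0.28), Cys-GCA-10-1 (−1.88 ± 0.24), Pro-TGG-3-1 (−1.82 ± 0.18) and iMet-CAT-2-1 (−1.59 ± 0.18). Of these, Pro-TGG-3-1 had the most reads, at 176, 249.6 and 295 CPM in cerebrum and 48.8, 63.4 and 107 CPM in cerebellum (edgeR adjusted p = 1.14e-08). Ser-AGA-1-1, Gln-CTG-4-1, Lys-CTT-1-1 and Cys-GCA-18-1 fell by 1.42, 1.28, 1.17 and 1.14 on the log2 scale and, like the others named here, did not overlap.

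Arg-TCT-4-1 is known as a tRNA enriched in neurons, and the C57BL/6J strain is known to carry a variant of its gene that lowers the mature tRNA. In cerebrum it measured 1194, 1365, 1411, 1417, 1474 and 1635 CPM, and in cerebellum 527, 534, 548, 549, 607 and 716 CPM, from the lowest library to the highest. The groups did not overlap, and cerebrum was 2.44-fold higher (log2 −1.29 ± 0.10 SE, edgeR adjusted p = 5.43e-10). The other members of the Arg-TCT family moved less: Arg-TCT-2-1 (−0.52 ± 0.10) and Arg-TCT-3-1 (−0.49 ± 0.11) were lower, whereas Arg-TCT-1-1 (0.31 ± 0.12, edgeR adjusted p = 0.021) and Arg-TCT-5-1 (0.34 ± 0.13, adjusted p = 0.0263) were higher with TMM and below 0 with the spike-in (−0.55 and −0.54). The call of Arg-TCT-1-1 was lost without cerebrum wildtype 3 or 4 or cerebellum wildtype 3, and that of Arg-TCT-5-1 without cerebrum wildtype 1, 2 or 3 or cerebellum wildtype 3 or 6.

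Initiator methionine tRNA starts every nuclear-encoded protein, and its main isodecoder iMet-CAT-1 did not pass (15348, 17664 and 20573 CPM in cerebrum against 12028, 14719 and 22407 CPM in cerebellum; log2 −0.18 ± 0.14 SE, edgeR adjusted p = 0.22). Its scarce sisters iMet-CAT-2-1 and iMet-CAT-3-1 (log2 −0.95 ± 0.20) were lower. The selenocysteine tRNA SeC-TCA-1-1, which decodes a stop codon in selenoprotein messages, was lower without overlap (2307 ± 335 against 1635 ± 218 CPM, log2 −0.50 ± 0.11 SE, edgeR adjusted p = 0.000415). Both isoleucine tRNAs with the anticodon TAT, whose genes hold an intron, did not pass (Ile-TAT-1-1 0.09 ± 0.11 and Ile-TAT-2 0.08 ± 0.09 SE).

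Over all 204 tRNAs 35.8% were higher and 39.7% lower, and the counts in each family stand against those shares. All 9 glycine isodecoders and all 3 histidine isodecoders were higher, with medians of 1.06 and 2.20 on the log2 scale against −0.05 over all tRNAs, and the total of glycine, not of histidine, turned below 0 with the spike-in. Of 20 alanine isodecoders 14 were higher, 1 was lower and 5 did not pass. Of 11 valine isodecoders 8 were higher and 3 did not pass. All 5 proline isodecoders were lower, as were 11 of 14 serine and 10 of 13 cysteine isodecoders, with 1 cysteine isodecoder higher. Arginine was mixed, with 13 of 19 lower and 5 higher. By the first anticodon base, 20 of 34 isodecoders whose anticodon starts with A, which is read as inosine, were higher and 10 lower (median 0.63), and of 39 that start with G, 9 were higher and 22 lower (median −0.39). These groups of anticodons differ in their amino acids, so the 2 descriptions are not separate. The medians for A and G also depended on the scaling: 0.92 and −0.09 with library totals, and −0.29 and −1.26 with the spike-in. Families whose genes hold introns (Tyr-GTA, Ile-TAT, Leu-CAA and Arg-TCT) split into 6 higher, 6 lower and 4 not passing of 16, close to the shares over all tRNAs.

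The leucine total did not pass, and its members went in opposite directions. Of the 16 leucine isodecoders 14 were higher and 2, both Leu-TAA, were lower. Leu-TAA tRNAs made up 57.1% ± 2.10 of leucine counts in cerebrum (54.0%, 58.0% and 59.0%) and 36.6% ± 3.61 in cerebellum (29.4%, 37.6% and 39.1%; SD, n = 6 each), the largest shift of any anticodon within its amino acid. The groups did not overlap (exact two-sided permutation p = 0.00216, adjusted p = 0.00603). The other 4 leucine anticodons took larger shares in cerebellum, among them Leu-CAA, from 14.1% ± 0.874 to 21.1% ± 1.23. A share within an amino acid does not depend on how libraries are scaled.

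Of 39 such anticodon shares 24 passed the exact permutation test after adjustment (61.5%). Shares within an amino acid add up to its total, so these counts are not of separate results. A pair such as Ile-AAT and Ile-TAT counts the same shift from both sides. Ser-GCT rose from 28.5% ± 1.85 to 37.7% ± 2.11 of serine counts while Ser-TGA fell from 46.9% ± 2.08 to 40.2% ± 1.76 (SD, n = 6 each). Within isoleucine, Ile-TAT fell from 47.2% ± 1.17 to 37.6% ± 2.23 and Ile-AAT took the rest, 52.8% and 62.4%. None of these overlapped between the groups, each with an exact permutation adjusted p of 0.00603. Arg-TCT rose within arginine, from 5.73% ± 0.2505 to 8.10% ± 0.631, even though its member Arg-TCT-4-1 fell. These are shares and not levels: with TMM the log2 fold change was −0.61 for Ser-GCT, −0.18 for Arg-TCT and 0.08 for Ile-TAT.

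**Figure D3:**
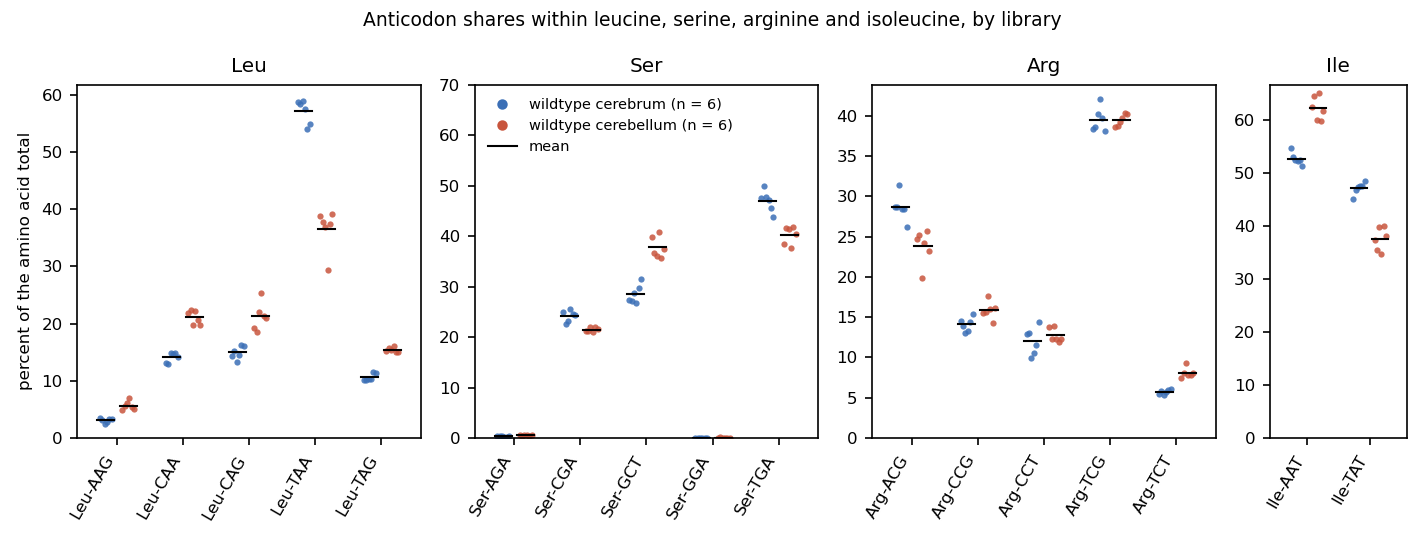
Percent of the leucine, serine, arginine and isoleucine total held by each nuclear anticodon (y axis) in each wildtype library; points are libraries and lines are means of 6. Leu-TAA drops from a mean of 57.1% to 36.6% while the other leucine anticodons rise, and Ile-AAT and Ile-TAT lie farther apart in cerebellum than in cerebrum.

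Within anticodons, 110 of 174 isodecoder shares passed the exact permutation test after adjustment (63.2%). Shares of an anticodon also add up to its total and are not separate results. In Arg-TCT, Arg-TCT-1-1 went from 39.9% ± 2.66 to 56.1% ± 1.80 of the anticodon's counts and Arg-TCT-4-1 from 18.1% ± 1.68 to 8.45% ± 1.12 (SD, n = 6 each). In Arg-CCT, the leading Arg-CCT-4-1 fell from 82.7% ± 1.52 to 69.0% ± 2.58 as Arg-CCT-1-1 rose from 4.10% ± 0.929 to 14.6% ± 1.82. In Val-AAC, Val-AAC-5-1 rose from 19.4% ± 2.24 to 34.3% ± 1.55 and Val-AAC-2 fell from 42.3% ± 1.18 to 30.2% ± 1.06, so that the leading isodecoder was Val-AAC-2 in cerebrum and Val-AAC-5-1 in cerebellum. In cerebellum Val-AAC-4-1, at 33.8% ± 1.61, lay within the spread of Val-AAC-5-1. Arg-TCG-3 fell from 47.4% ± 2.10 to 37.9% ± 1.05, and Trp-CCA-5-1 rose from 76.0% ± 1.23 to 84.5% ± 1.75. These 8 shares had the largest differences, did not overlap between the groups, and had an exact permutation adjusted p of 0.0053 each.

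The other anticodon whose leading isodecoder differed was Thr-CGT, but there the difference was within the spread. Thr-CGT-2-1 held 36.7% ± 1.74 in cerebrum and 34.9% ± 1.33 in cerebellum, and Thr-CGT-1-1 34.2% ± 1.77 and 36.3% ± 1.303. Neither share passed (exact permutation adjusted p = 0.128 and 0.0649).

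**Figure D4:**
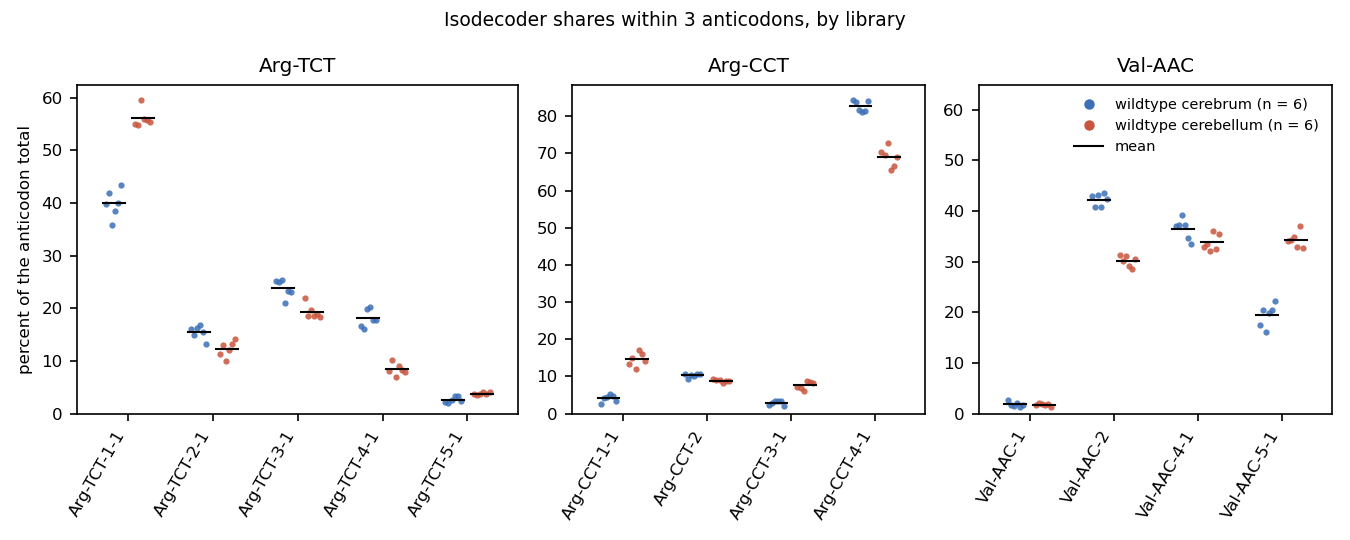
Percent of the Arg-TCT, Arg-CCT and Val-AAC totals held by each isodecoder (y axis) in each wildtype library; points are libraries and lines are means of 6. Arg-TCT-4-1 drops from 18.1% to 8.45%, Arg-CCT-1-1 rises from 4.10% to 14.6%, and Val-AAC-5-1 rises from 19.4% to 34.3%.

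Of the 22 mitochondrial tRNAs 8 were higher, 5 lower and 9 did not pass, beside 35.8% higher and 39.7% lower over all 204 tRNAs, so the count of higher ones was near that of all tRNAs. Ala-TGC rose from 1014, 1350 and 1669 CPM in cerebrum to 3285, 3405 and 3845 CPM in cerebellum (log2 1.36 ± 0.11 SE, edgeR adjusted p = 4.43e-10). His-GTG rose from 1488, 1910 and 2924 CPM to 4533, 4847 and 5140 CPM (log2 1.27 ± 0.12 SE, edgeR adjusted p = 1.5e-08). Glu-TTC rose from 1158, 1544 and 1844 CPM to 3192, 3386 and 4005 CPM (log2 1.21 ± 0.11 SE, edgeR adjusted p = 3.58e-09). None of the 3 overlapped between the groups, and all stayed above 0 with the spike-in.

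Thr-TGT (log2 0.82 ± 0.11 SE), Cys-GCA (0.57 ± 0.14), Phe-GAA (0.45 ± 0.13), Ser2-GCT (0.44 ± 0.10) and Arg-TCG (0.36 ± 0.11) were higher with TMM and below 0 with the spike-in. Trp-TCA, the most abundant mitochondrial tRNA in cerebrum, fell from 20472, 22134 and 26797 CPM to 10205, 11381 and 15788 CPM (log2 −0.91 ± 0.11 SE, edgeR adjusted p = 1.94e-07), again without overlap. Asn-GTT (−0.83 ± 0.12), Val-TAC (−0.76 ± 0.10) and Gln-TTG (−0.54 ± 0.12) were lower too. Ile-GAT was lower by the narrowest margin (−0.34 ± 0.15, edgeR adjusted p = 0.041) and lost its call without cerebrum wildtype 1 or any 1 of cerebellum wildtype 1, 2, 3, 4 and 6.

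The genes of mitochondrial Ala-TGC and Asn-GTT, whose sequences are printed above, are neighbours on the minus strand, yet their log2 fold changes were 1.36 and −0.83. On the plus strand 5 of 14 were higher and 3 lower, and on the minus strand 3 of 8 were higher and 2 lower, with the higher ones on each strand near the 35.8% of all tRNAs.

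**Figure D5:**
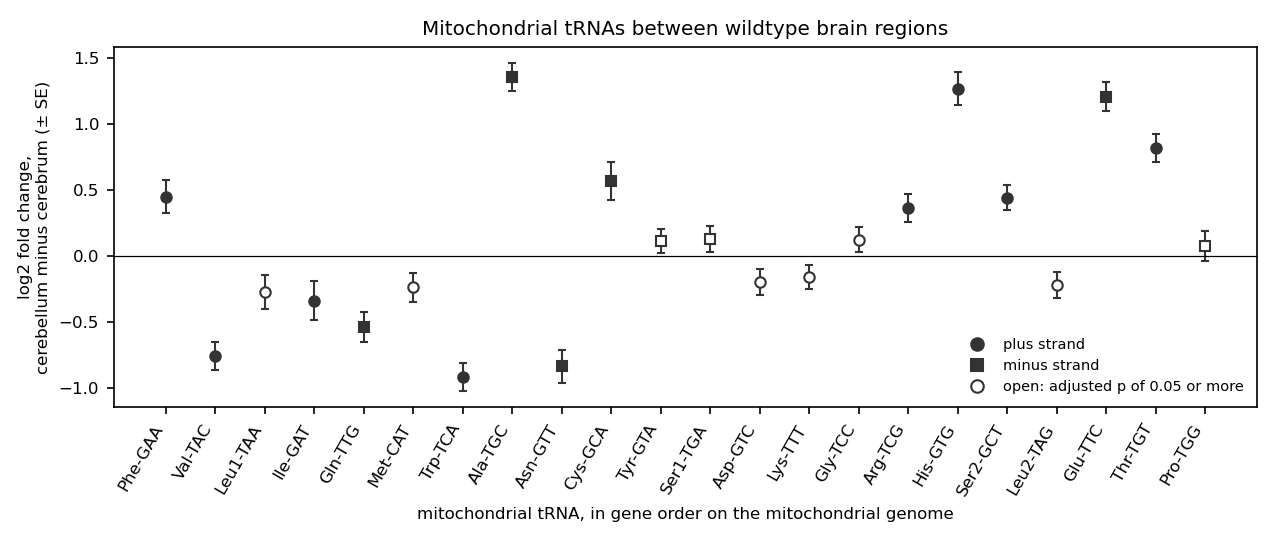
Log2 fold change, cerebellum minus cerebrum, of the 22 mitochondrial tRNAs (y axis, bars are SE, 6 libraries each) in gene order (x axis); circles are plus-strand and squares minus-strand genes, and open symbols did not pass. Ala-TGC at 1.36 and Asn-GTT at −0.83 stand next to each other.

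Nuclear and mitochondrial tRNAs for the same amino acid often differed in direction with TMM. Over the 22 mitochondrial tRNAs, Spearman's rho with the fold change of the nuclear total for that amino acid was −0.04, a description over points that share libraries. Both sides passed in 12 cases, with the same direction in 5. Histidine and alanine were higher on both sides, asparagine lower on both, while valine was 0.72 for nuclear tRNAs and −0.76 for mitochondrial Val-TAC, and tryptophan 0.74 and −0.91. These comparisons depend on the scaling. With the spike-in nuclear valine (−0.16) and tryptophan (−0.17) were below 0, as were their mitochondrial tRNAs. Nuclear alanine was then below 0 (−0.24), whereas mitochondrial Ala-TGC stayed above 0.

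Annotated gene copies were loosely related to levels. Of the 402 tRNA genes named by anticodon in the RefSeq annotation, those of methionine were left out, and 46 nuclear anticodons had a gene count. Spearman's rho between gene copies and mean share of counts was 0.16 in cerebrum and 0.305 in cerebellum. It is given as a description over anticodons measured in the same libraries. The gene counts are not complete: Lys-TTT had 2 genes but 4 isodecoders measured, and Ile-TAT 1 gene but 2 isodecoders.

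The region contrast was repeated in the 9 Polr3a mutant libraries, 4 from cerebrum and 5 from cerebellum, which share no library with the wildtype comparison. In cerebellum 4 of the 5 mutant libraries were as deep as the cerebrum libraries, unlike the wildtype ones. In these mutants 138 of 204 tRNAs (67.6%), 54 of 72 anticodons (75%) and 16 of 24 classes (66.7%) passed (edgeR adjusted p under 0.05). Of the 154 wildtype calls, 122 (79.2%) also passed in the mutants, which is 88.4% of the mutant calls, and all 122 had the same direction. Without the shallow cerebellum mutant 1, 132 passed, of which 118 were wildtype calls, all in the same direction. His-GTG-2 differed by 1.90 ± 0.204 (log2, SE) between the mutant regions. The difference between the wildtype and mutant contrasts itself passed for 10 of the 204 tRNAs (4.9%), for the anticodon Tyr-GTA among 72 (1.39%) and for tyrosine among 24 classes (4.17%). Tyrosine tRNA, made from intron-bearing genes, was −0.62 ± 0.11 (log2, SE) between the wildtype regions and 0.04 ± 0.18 between the mutant regions (edgeR adjusted p of the difference = 0.0298). These mutants carry the Polr3a mutation and come from the same study, so they are a second set of libraries and not a second wildtype sample. Mutant against wildtype within a region was not tested here. In the mutant libraries, too, region and any preparation batch cannot be told apart, so a shared direction could reflect either.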

How the data were processed

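The authors deposited raw read counts per tRNA, whole numbers, in 1 table per region. The submitters' processing notes name the mm10 build and the tools cutadapt, Bowtie2, featureCounts and DESeq2. Their versions and how reads matching several isodecoders were assigned were not stated. The spike-in row, excluded from totals and tests, made up between 0.222% and 0.316% of each cerebrum library and between 0.401% and 0.9400% of each cerebellum library. All table columns were matched by name.

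Rows in both tables were fitted with edgeR 4.0.16 (limma 3.58.1, R 4.3.3): robust quasi-likelihood, TMM, filterByExpr with a minimum count of 10, two-sided, Benjamini-Hochberg over each level, threshold 0.05. Anticodon and amino acid sums used the isodecoder TMM factors; factors from the summed rows were tried after the data were examined. The SE is the log2 fold change over the square root of F. Shares (mean count of at least 10) and library measures were compared by exact two-sided permutation over all 924 splits, the smaller tail doubled (Python 3.11.15, numpy 2.4.6). No replicates agreed within sampling noise (lowest chi-square per degree of freedom 46.7).

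Named were the 12 highest and lowest tRNAs passing, the 10 most abundant per region, initiator methionine, selenocysteine, Arg-TCT, Ile-TAT, mitochondrial tRNAs, all amino acids, and the 8 isodecoder and 6 anticodon shares that differed most; other family members were named after their values were seen. Members and lists were chosen with earlier results of these data known. Alternatives were other scalings, DESeq2 1.42.0, filters, nuclear tRNAs only, all 21 libraries, sex, a replicate block, thinning, cerebellum wildtype 5 alone and leaving out each library; the mutant contrast was added after the data were examined. The steps were tested on simulated data. Mitochondrial gene positions and sequences come from GENCODE M21 (mm10), and gene copies from RefSeq (GRCm38.p6).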

Additional observations from a re-analysis of the deposited data

Results flagged for a closer look

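Libraries far from the others of their group were looked for in 256 groups of 6, by the gap to the nearest other library as a share of the group's range. In all, 21 were found (8.2%), where chance gives about 1 in 20 for each group. The groups are not independent, since an isodecoder also counts in its anticodon, amino acid and share. Some of the 21 are thus the same event, as with Gln-CTG-2, Gln-CTG and the glutamine total. Explanations were not tested.

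Cerebrum wildtype 1 stood apart most often. Its mitochondrial share was 10.4%, against 11.2% to 11.7% in the other 5. It had the highest Gln-CTG-2 (113440 CPM, the others 80314 to 91181), hence the highest Gln-CTG (113814 CPM) and glutamine total (116927 CPM), the highest mitochondrial Ile-GAT (5310 CPM, the others 2644 to 3005) and the lowest Gly-GCC-2 (171 CPM).

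In the other cerebrum libraries, wildtype 5 was high in Glu-CTC-1 (29260 CPM) and with it Glu-CTC (29272 CPM), wildtype 2 was low in mitochondrial Cys-GCA (957 CPM), and wildtype 6 was high in mitochondrial Lys-TTT (8882 CPM) and in the mitochondrial total (133796 CPM).

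In cerebellum, wildtype 3 was high in Arg-TCT-1-1 (5179 CPM, and 59.7% of Arg-TCT), mitochondrial Lys-TTT (8411 CPM) and the scarce Gln-TTG-5-1 (6.27 CPM). Wildtype 4 was low in the Leu-TAA share of leucine (29.4%, the others 36.8% to 39.1%), Arg-TCG-3 (10842 CPM) and mitochondrial Gly-TCC (3511 CPM). Wildtype 2 was high in mitochondrial Phe-GAA (24208 CPM), wildtype 6 low in Arg-CCT-1-1 (1493 CPM), and wildtype 5, the deep library, high in mitochondrial Ile-GAT (3265 CPM).

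The region contrast (cerebellum minus cerebrum, log2) differed between the wildtype and the mutant libraries for 10 tRNAs by edgeR's test of the difference. Wildtype minus mutant was −0.97 for Ala-AGC-1-1, −0.81 for Ala-AGC-5, −1.18 for Leu-CAA-4-1, −1.28 for Met-CAT-4-1 and −0.96 for Ser-GCT-1-1. It was −0.74 for Thr-AGT-5-1, −0.91 for Thr-AGT-6-1, −0.74 for Tyr-GTA-1, −0.63 for Val-AAC-2 and −1.01 for Val-CAC-1-1. The anticodon Tyr-GTA and the tyrosine total each gave −0.67. All of these differences were below 0. Ala-AGC-1-1, Ala-AGC-5, Leu-CAA-4-1, Met-CAT-4-1, Val-AAC-2 and Val-CAC-1-1 had region contrasts above 0 in both sets of libraries, larger in the mutants. The other tRNAs were below 0 in wildtype and above 0 in the mutants. Among those, only Ser-GCT-1-1 passed in the mutants (log2 0.72, edgeR adjusted p = 0.0115).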

How the results depend on the processing

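The counts of passing tRNAs, anticodons and amino acids stayed within 1.5 times under every alternative run: 109 to 164, 41 to 60 and 17 to 21, and when 1 library was left out 148 to 158, 54 to 63 and 19 to 21. The lowest, 109 tRNAs, came from cerebellum wildtype 5 alone against cerebrum, with the spread taken from cerebrum; 108 of them were among the 154, all in the same direction. Leaving out 1 library gave 99 to 111 isodecoder shares and 21 to 25 anticodon shares, and library differences of 2.01 to 2.39 percentage points (mitochondrial share), −1.38 to −1.13 and −1.09 to −0.86 (nuclear and mitochondrial per spike-in, log2), 9.71 to 11.01 and 4.42 to 4.94 (effective isodecoders and anticodons) and −7.265 to −6.463 percentage points (share of the 10 most abundant). Over 122 named results, 1409 of 1464 such refits kept direction and side of the threshold. The tRNAs called changed more than their number did. With library totals 150 tRNAs passed, 131 of them among the 154, all in the same direction. With the spike-in 143 passed, of which 96 were among the 154 and 87 had the same direction. For anticodons the spike-in shared 37 of the 59 calls, 33 in the same direction.

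Replicate numbers were shared by the regions and their sexes matched in 6 of 6, but same-numbered libraries did not all deviate together (r from −0.02 to 0.45), and whether the numbers mark the same animals is not stated. A replicate block gave 164 tRNAs, 60 anticodons and 19 amino acids, and 4 of 6 numbers correlated best with their own. The block ended the calls of the Met total and the Met-CAT anticodon (edgeR adjusted p = 0.0619 and 0.0628). With the block, 0 isodecoder shares and 0 anticodon shares passed, since the exact sign-flip test of 6 pairs has a smallest p of 0.03125.

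Log2 fold changes, cerebellum minus cerebrum, changed sign as follows, and the cause was not tested. With the spike-in the signs that changed were Glu-CTC-1 −0.41, Ala-AGC-4 −0.19, Met-CAT-1 −0.66, Phe-GAA-MT −0.47, Arg-TCT-1-1 −0.55, Arg-TCT-5-1 −0.54 and Ile-TAT-1-1 −0.81. The same scaling gave Ile-TAT-2 −0.82, Cys-GCA-MT −0.31, Tyr-GTA-MT −0.80, Ser1-TGA-MT −0.80, Gly-TCC-MT −0.77, Arg-TCG-MT −0.57 and Ser2-GCT-MT −0.43. It also gave Thr-TGT-MT −0.099, Pro-TGG-MT −0.81, Gly-GCC anticodon −0.15, Ala-AGC anticodon −0.20, Glu-CTC anticodon −0.41, Met-CAT anticodon −0.68 and Ala total −0.24. Further values were Glu total −0.57, Gly total −0.39, Ile total −0.49, Leu total −0.74, Met total −0.68, Trp total −0.17 and Val total −0.16. With RLE size factors the signs that changed were Phe-GAA-1 0.014 and mitochondrial total 0.012. With library totals the signs that changed were Phe-GAA-1 0.26, iMet-CAT-1 0.095, Leu1-TAA-MT 0.019, Met-CAT-MT 0.049, Asp-GTC-MT 0.091, Lys-TTT-MT 0.13 and Leu2-TAG-MT 0.066. The same scaling gave Phe-GAA anticodon 0.24, Phe total 0.24, iMet total 0.080 and mitochondrial total 0.26. With mitochondrial total scaling the sign that changed was Phe-GAA-1 0.0056. With DESeq2 the signs that changed were Phe-GAA-1 0.014, Phe-GAA anticodon 0.040, Phe total 0.18, iMet total 0.0024 and mitochondrial total 0.19. With cerebellum wildtype 5 alone the signs that changed were Phe-GAA-1 0.23, Ile-GAT-MT 0.042, Asp-GTC-MT 0.13, Phe-GAA anticodon 0.21, Phe total 0.21 and mitochondrial total 0.029. With TMM factors from the summed rows (chosen after seeing the data) the signs that changed were Phe-GAA anticodon 0.058, Phe total 0.17, iMet total 0.023 and mitochondrial total 0.20. Leaving out 1 library gave −0.082 to 0.028 for Phe-GAA-1 (above 0 without cerebrum wildtype 2, at 0.0022, or 4, or cerebellum wildtype 3, at 0.012) and −0.10 to 0.012 for the Phe-GAA anticodon and the Phe total (above 0 without cerebrum wildtype 4). Sequencing depth limits the scarce tRNAs: Sup-TCA-1-1 and Gln-TTG-5-1 had 3 reads in their lowest library.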
